A study of Mus musculus with 48 samples.

Results

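The neurotrophin group measured here held 7 genes of the 34844 gene names on the array: Bdnf and Ntf3, which encode secreted neurotrophins, Ntrk2, Ntrk3, Ngfr and Sort1, which encode neurotrophin receptors, and Vgf, a neurotrophin-inducible gene that encodes a secreted peptide precursor. The members were every non-control probe whose gene name in the array files was one of these 7, which gave 14 probes of 55681: 1 each for Bdnf, Ntf3, Ngfr and Vgf, 3 each for Ntrk2 and Sort1, and 4 for Ntrk3. The mice were female C57BL/6J, 17 weeks old, in 4 groups of 6. Control mice had a sham operation and no stress, CUMS mice had a sham operation and chronic ultra-mild stress (CUMS), OVX mice had a bilateral ovariectomy (OVX) and no stress, and OVX+CUMS mice had both. Stress began after the operation, so all 24 mice had undergone surgery. RNA of the medial prefrontal cortex (mPFC) and of the pelleted cells of whole blood from each mouse was hybridised to a one-colour array, 48 arrays in all. Both are mixed tissues, in which fewer cells of a type and less RNA per cell cannot be told apart.

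Neurotrophins are made as longer precursors that proteases cleave. The mature form of Bdnf binds TrkB, the product of Ntrk2, and Ntf3 binds TrkC, the product of Ntrk3. Both receptors exist as a full-length form with an intracellular tyrosine kinase and as truncated forms that share the extracellular part and lack the kinase. Ngfr encodes p75, which binds all neurotrophins and, together with sortilin, the product of Sort1, binds their precursors. Sortilin also sorts proteins inside the cell. In the cortex, neurons transcribe Bdnf and Vgf in response to activity, and astrocytes carry mostly truncated TrkB.

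The results turn on 4 probes, each 60 bases long, shown because they read different forms of the receptors. Positions are those of the array's own annotation, on mouse build mm9. The shared Ntrk2 probe A_55_P2006792 (chr13:58979563-58979622, plus strand) was annotated to both the full-length and the truncated transcript, and its bases encode the end of the membrane-spanning part and the residues that follow. The kinase probes of Ntrk3 were A_55_P2056533 (chr7:85392044-85392103, minus strand) and A_66_P118329 (chr7:85337455-85337514, minus strand), both annotated to the kinase transcript. The capitals in the first mark the codons of the metal-binding motif at the start of the activation loop, and those in the second the codon of the tyrosine that recruits phospholipase C gamma. The truncated-form Ntrk3 probe A_55_P2006808 (chr7:85447515-85447574, minus strand) ends on the stop codon of the truncated transcript, in capitals.
Ntrk2 shared probe: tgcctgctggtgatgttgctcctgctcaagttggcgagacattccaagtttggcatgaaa
Ntrk3 kinase probe 1: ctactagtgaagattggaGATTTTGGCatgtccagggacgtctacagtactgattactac
Ntrk3 kinase probe 2: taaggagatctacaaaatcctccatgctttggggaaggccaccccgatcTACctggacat
Ntrk3 truncated-form probe: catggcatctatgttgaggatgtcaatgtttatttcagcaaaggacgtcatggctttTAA

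The other probes lay elsewhere in the same genes. Ntrk2 A_51_P393454 (chr13:59230936-59230995) was annotated to the full-length transcript and A_65_P04961 (chr13:59038046-59038105) to the truncated one, and Ntrk3 A_52_P500274 (chr7:85445908-85445967) to the truncated one. The Bdnf probe (chr2:109566961-109567020) was annotated to several transcripts of the gene. Of the Sort1 probes, A_51_P517145 spanned chr3:108157150-108159198, with an intron between its ends, A_52_P590396 lay at chr3:108164349-108164408, and A_55_P2076683 lay at chr3:108158404-108158463, within the intron that the first probe spans, and was annotated to other transcripts. The probes of Ntf3 (chr6:126051431-126051490), Ngfr (chr11:95430211-95430270) and Vgf (chr5:137509153-137509212) completed the group.

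Levels are on a log2 scale on which 0 is the array's own 75th percentile of background-subtracted spot intensity. They are compared between samples for 1 probe and not between probes. A probe entered the tests of a tissue when it was above background on all 24 arrays of that tissue, which left 28360 probes in mPFC and 20768 in blood. All 14 member probes passed in mPFC, and 7 passed in blood. The 75th percentile was 572 to 689 units in mPFC and 54.9 to 192 in blood, so weak probes had less room above background in blood. Each tissue lay on 3 slides with the same layout. All 6 control mice and 2 of the CUMS mice were on slide 1, the other 4 CUMS mice shared slide 2 with 4 OVX mice, and slide 3 carried the last 2 OVX mice with all 6 OVX+CUMS mice. No slide carried both control and OVX+CUMS mice. With slide as a block, no probe of the 28360 in mPFC was called for OVX, for CUMS, for the interaction or for OVX+CUMS against control, and in blood, of 20768, none was called except for CUMS. All 7 neuron markers were detected in mPFC, and all 6 erythroid and 7 platelet markers in blood. Markers of the other tissue were detected too: 3 of 7 neuron, 2 of 7 astrocyte and 6 of 6 oligodendrocyte markers in blood, and 4 of 6 erythroid and 4 of 7 platelet markers in mPFC. The astrocyte markers Gja1, S100b, Slc1a2 and Slc1a3 and the neuronal marker Nefl were above background on no blood array.

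In mPFC, averaged over stressed and unstressed mice, the kinase probes of Ntrk3 were 1.12-fold (A_55_P2056533) and 1.11-fold (A_66_P118329) higher after ovariectomy. In group means this difference lay between the unstressed groups, control and OVX, which shared no slide, and neither interaction was called. Both probes were also higher in OVX+CUMS than control mice. Vgf was 0.909-fold after ovariectomy, and Bdnf, Ntf3, Ngfr and all 3 Ntrk2 probes were called in no comparison. An OVX effect is the difference averaged over stressed and unstressed mice, a CUMS effect the difference averaged over both kinds of surgery, and the interaction is the CUMS effect in ovariectomized mice minus that in sham-operated mice. For OVX, 3 of 14 member probes were called at an adjusted p under 0.05, 2 higher and 1 lower, while 30.9% of all probes tested were called, 19.1% higher and 11.7% lower. CUMS called 0 of 14, against 4.19% of all probes, 2.33% higher and 1.86% lower. The interaction called 1 of 14, a positive one, against 4.49%, of which 3.37% were positive and 1.12% negative. OVX+CUMS against control called 2 of 14, both higher, against 33.4%, 20.4% higher and 13% lower. The members' shares for OVX and for OVX+CUMS lay below these backgrounds.

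**Figure D1:**
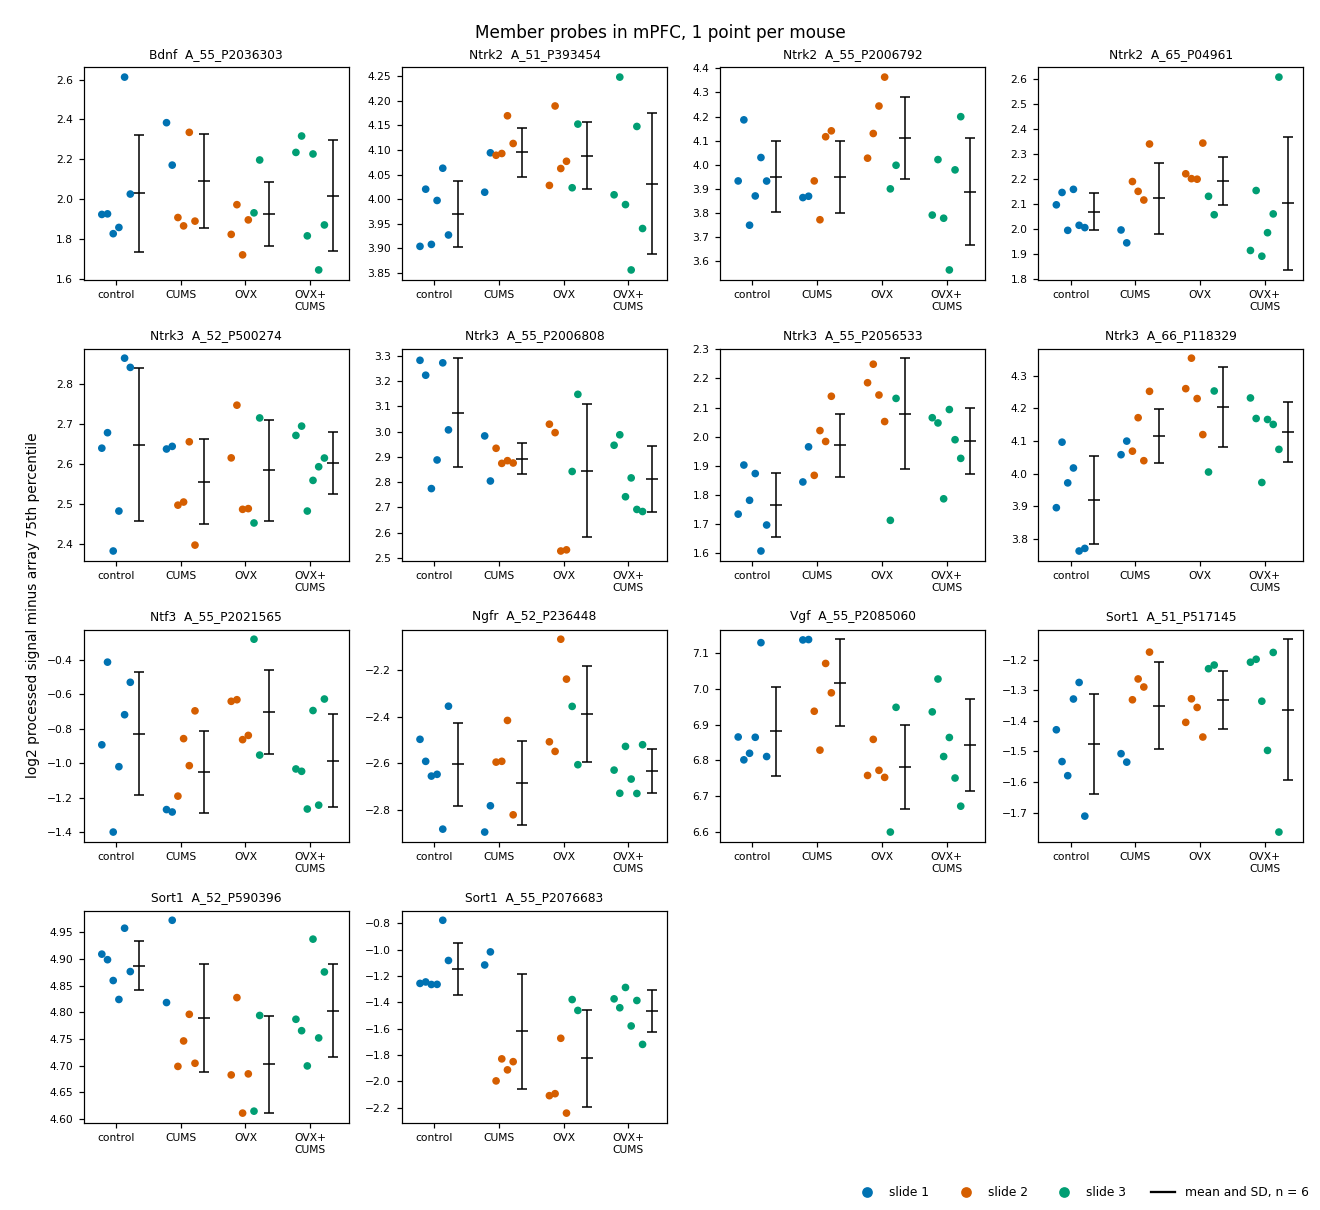
Level of each of the 14 member probes in mPFC (log2, relative to the array's 75th percentile) in the 4 groups, 1 point per mouse coloured by slide, with the group mean and SD (n = 6) beside the points; each panel has its own scale. Both Ntrk3 kinase probes (A_55_P2056533 and A_66_P118329) are lowest in control mice, and Sort1 A_55_P2076683 is lowest in the mice on slide 2.

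Bdnf, the ligand of TrkB, did not differ between the groups in mPFC beyond the spread between mice. Its level ranged from 1.83 to 2.61 in control mice with a median of 1.92, from 1.87 to 2.38 in CUMS mice with a median of 2.04, from 1.72 to 2.20 in OVX mice with a median of 1.91 and from 1.64 to 2.32 in OVX+CUMS mice with a median of 2.05. The groups overlapped throughout, and control mouse 5, at 2.61, was the highest of the 24. The group means were 2.03 ± 0.29 (SD, n = 6) in control, 2.09 ± 0.24 in CUMS, 1.92 ± 0.16 in OVX and 2.02 ± 0.28 in OVX+CUMS mice. OVX+CUMS minus control was -0.01 with a 95% confidence interval of -0.29 to 0.27, that is, 0.816-fold to 1.21-fold. The OVX effect was -0.09 (interval -0.29 to 0.11) and the CUMS effect 0.08 (-0.12 to 0.28).

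Ntf3, the ligand of TrkC, had a CUMS effect of -0.25 (SE 0.11), with an adjusted p of 0.167 in limma and an unadjusted p of 0.0303. Its group means were -0.83 ± 0.36 in control, -1.05 ± 0.24 in CUMS, -0.70 ± 0.24 in OVX and -0.98 ± 0.27 in OVX+CUMS mice. The ranges of all 4 groups overlapped. Ntf3 and Ngfr were the only members with an unadjusted limma p under 0.05 for CUMS, and an analysis of variance without moderation also called 0 of 14.

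The 3 Ntrk2 probes moved little in mPFC. The full-length probe A_51_P393454 had group means from 3.97 ± 0.07 in control to 4.10 ± 0.05 in CUMS mice, the truncated-form probe A_65_P04961 from 2.07 ± 0.07 in control to 2.19 ± 0.10 in OVX mice, and the shared probe A_55_P2006792 from 3.89 ± 0.22 in OVX+CUMS to 4.11 ± 0.17 in OVX mice. OVX+CUMS minus control was 0.06 (95% interval -0.05 to 0.17) for the full-length probe, 0.03 (-0.16 to 0.22) for the truncated-form probe and -0.06 (-0.27 to 0.14) for the shared one. On this scale the intervals stay within 0.832-fold to 1.17-fold. Over 11 alternatives in processing, the difference ran from -0.20 to 0.06 for the full-length probe and was never called. It ran from -0.23 to 0.04 for the truncated-form probe and from -0.32 to 0.06 for the shared one, each called in 1 of the 11.

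Ntrk3 was the receptor gene with mPFC calls for OVX and for OVX+CUMS against control. Kinase probe A_55_P2056533 ranged from 1.61 to 1.90 in control mice with a median of 1.76, from 1.84 to 2.14 in CUMS mice with a median of 1.97, from 1.71 to 2.25 in OVX mice with a median of 2.14 and from 1.79 to 2.09 in OVX+CUMS mice with a median of 2.02. Of the 6 OVX+CUMS mice, 5 exceeded every control mouse. Its OVX effect was 0.16 (SE 0.05, 1.12-fold, adjusted p = 0.0264 in limma), and OVX+CUMS minus control was 0.22 (SE 0.08, 1.16-fold, adjusted p = 0.0332, exact two-sided permutation p = 0.00866).

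The second kinase probe, A_66_P118329, behaved alike in these arrays: the deviations of the pair from their group means had r = 0.904 over 24 mPFC arrays, which share library and slide. It ranged from 3.76 to 4.10 in control mice with a median of 3.93, from 4.04 to 4.25 in CUMS mice with a median of 4.08, from 4.0 to 4.35 in OVX mice with a median of 4.24 and from 3.97 to 4.23 in OVX+CUMS mice with a median of 4.16. Here 4 of the 6 OVX+CUMS mice exceeded every control mouse. The OVX effect was 0.15 (SE 0.05, 1.11-fold, adjusted p = 0.0165 in limma), and OVX+CUMS minus control was 0.21 (SE 0.06, adjusted p = 0.0159, exact permutation p = 0.0130).

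The truncated-form probes of Ntrk3 did not pass the test. A_55_P2006808 had group means of 3.07 ± 0.22 in control, 2.89 ± 0.06 in CUMS, 2.85 ± 0.26 in OVX and 2.81 ± 0.13 in OVX+CUMS mice. OVX+CUMS minus control was -0.26 (SE 0.10), with an adjusted limma p of 0.0538 and an exact permutation p of 0.0390, and 3 of 6 OVX+CUMS mice lay below the lowest control mouse. A_52_P500274 gave -0.05 (95% interval -0.20 to 0.11).

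Scaling mattered for the Ntrk3 calls. When arrays were shifted by their E1A spike-in probes in place of the 75th percentile, the median change of all mPFC probes moved from 0.06 to -0.20 for OVX+CUMS against control, from 0.04 to -0.09 for OVX and from 0.01 to -0.11 for CUMS, and the kinase probes then gave -0.04 (A_55_P2056533) and -0.05 (A_66_P118329) for OVX+CUMS against control, with the direction turned, and 0.03 and 0.01 for OVX. Of all mPFC probes, 137 were then called higher and 5963 lower for OVX, where the 75th percentile gave 5423 and 3328. The interactions of the pair were -0.30 and -0.27, with limma adjusted p of 0.109 and 0.0805. With slide as a block the OVX effect was 0.26 and 0.19 for the pair, with limma adjusted p of 0.720 and 0.792. The interactions were then -0.08 for A_55_P2056533 and -0.16 for A_66_P118329, neither called. Control and OVX mice shared no slide, so the difference between the unstressed groups cannot be told apart from slides. Within slide 2, CUMS minus OVX was -0.15 for A_55_P2056533 and -0.11 for A_66_P118329, neither called, where 0.0423% of all probes were. The call of A_55_P2056533 for OVX+CUMS against control was lost in 7 of 24 fits that each left out 1 array, those without control mouse 1, 5 or 6 or without OVX+CUMS mouse 1, 2, 4 or 5, and its OVX call was lost without OVX mouse 2. Those of A_66_P118329 were kept in all 24 for both comparisons.

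Kinase-form and truncated-form probes were also set against each other within an array, where a shift of the whole array cancels. This measure, the mean of both kinase probes minus the mean of both truncated-form probes of Ntrk3, was built after their values in these groups had been seen, so it is given as a description with no test and is no separate evidence of a difference. Its size has no meaning as a ratio of transcripts, since probes differ in brightness. It ranged from -0.38 to 0.30 in control mice with a median of -0.05, from 0.14 to 0.56 in CUMS mice with a median of 0.28, from 0.21 to 0.68 in OVX mice with a median of 0.41 and from 0.27 to 0.44 in OVX+CUMS mice with a median of 0.35. The control mice were the lowest and the most spread group, and 4 of 6 OVX+CUMS mice exceeded all of them. OVX+CUMS minus control was 0.37, and 0.29 to 0.43 when each mouse of these groups was left out in turn. Ovariectomized mice exceeded sham-operated mice by 0.24 on average. Within slide 2, the mean of OVX exceeded that of CUMS by 0.16, and the OVX mice averaged 0.52 on slide 2 and 0.24 on slide 3. The same measure for Ntrk2, full-length minus truncated-form probe, gave group means of 1.90, 1.97, 1.90 and 1.93 in control, CUMS, OVX and OVX+CUMS mice, and OVX+CUMS minus control was 0.03. The astrocyte and oligodendrocyte marker lists had group means from 2.88 to 2.97 and from 2.78 to 3.09. Of their genes, 0 of 7 and 1 of 6 were called for OVX, against 30.9% of all mPFC probes, 19.1% higher and 11.7% lower. Of the 6 microglia markers, 5 were higher after OVX. Their summed linear level was 56.8 to 62.3 in control, 56.6 to 72.8 in CUMS, 63.9 to 73.9 in OVX and 62.1 to 75.9 in OVX+CUMS mice. The part of these cells in the Ntrk3 difference was not tested.

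**Figure D2:**
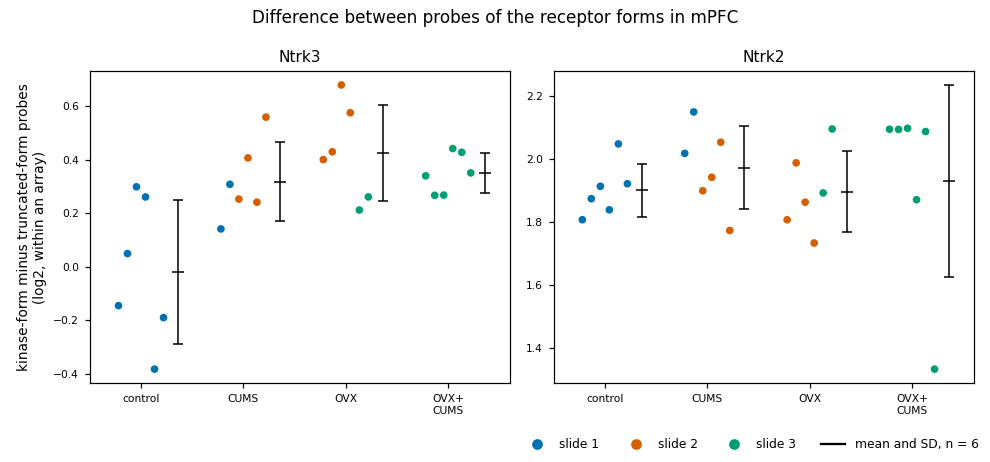
Kinase-form minus truncated-form probes within each mPFC array (log2) for Ntrk3 (mean of 2 probes minus mean of 2 probes) and Ntrk2 (1 probe minus 1 probe), 1 point per mouse coloured by slide, with the group mean and SD (n = 6). For Ntrk3 the control mean is -0.02 and the other group means are 0.32 to 0.43, while the Ntrk2 means stay between 1.90 and 1.97, with 1 OVX+CUMS mouse at 1.33.

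Ngfr, which encodes p75, had an OVX effect of 0.13 (SE 0.07, adjusted p = 0.139) and a CUMS effect of -0.16 (SE 0.07, adjusted p = 0.149, unadjusted p = 0.0245) in limma. The group means were -2.61 ± 0.18 in control, -2.68 ± 0.18 in CUMS, -2.39 ± 0.21 in OVX and -2.63 ± 0.09 in OVX+CUMS mice. All 4 ranges overlapped.

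The 3 Sort1 probes differed from each other. A_55_P2076683, the probe within the intron, ranged from -1.26 to -0.78 in control mice with a median of -1.25, from -2.00 to -1.02 in CUMS mice with a median of -1.84, from -2.24 to -1.38 in OVX mice with a median of -1.88 and from -1.72 to -1.29 in OVX+CUMS mice with a median of -1.41. The single-treatment groups were thus lower than either control or OVX+CUMS mice, and the interaction was 0.83 (SE 0.24, adjusted p = 0.0499 in limma). This order followed the slides: CUMS mice averaged -1.07 on slide 1 and -1.90 on slide 2, and OVX mice -2.03 on slide 2 and -1.42 on slide 3. With slide as a block the interaction was -0.13, with the sign turned, and within slide 2 CUMS minus OVX was 0.13 (adjusted p = 0.603). The call was kept in 5 of 24 fits that left out 1 array, those without CUMS mouse 1 or 2, OVX mouse 5 or 6, or OVX+CUMS mouse 6. All 6 OVX+CUMS mice lay below the lowest control mouse (difference -0.32, exact permutation p = 0.00216, the smallest this design allows), while limma, which pools the spread of all 4 groups, gave an adjusted p of 0.160. These groups shared no slide.

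The other Sort1 probes gave smaller differences. A_52_P590396 had group means of 4.89 ± 0.05 in control, 4.79 ± 0.10 in CUMS, 4.70 ± 0.09 in OVX and 4.80 ± 0.09 in OVX+CUMS mice, with an OVX effect of -0.09 (SE 0.04, adjusted p = 0.0800). The splice-junction probe A_51_P517145 had an OVX effect of 0.07 (95% interval -0.07 to 0.20).

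Vgf had an OVX effect of -0.14 (SE 0.05, 0.909-fold, adjusted p = 0.0424 in limma). Its level ranged from 6.80 to 7.13 in control mice with a median of 6.84, from 6.83 to 7.14 in CUMS mice with a median of 7.03, from 6.60 to 6.95 in OVX mice with a median of 6.77 and from 6.67 to 7.03 in OVX+CUMS mice with a median of 6.84. The highest value was in a CUMS mouse and the lowest in an OVX mouse, and all groups overlapped. The call was lost in 14 of 24 fits without 1 array, kept without control mouse 2, 3 or 6, CUMS mouse 3, 4 or 6, OVX mouse 2 or 6 or OVX+CUMS mouse 1 or 2, and with slide as a block the effect was -0.01. OVX+CUMS minus control was -0.04 (95% interval -0.19 to 0.11).

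**Figure D3:**
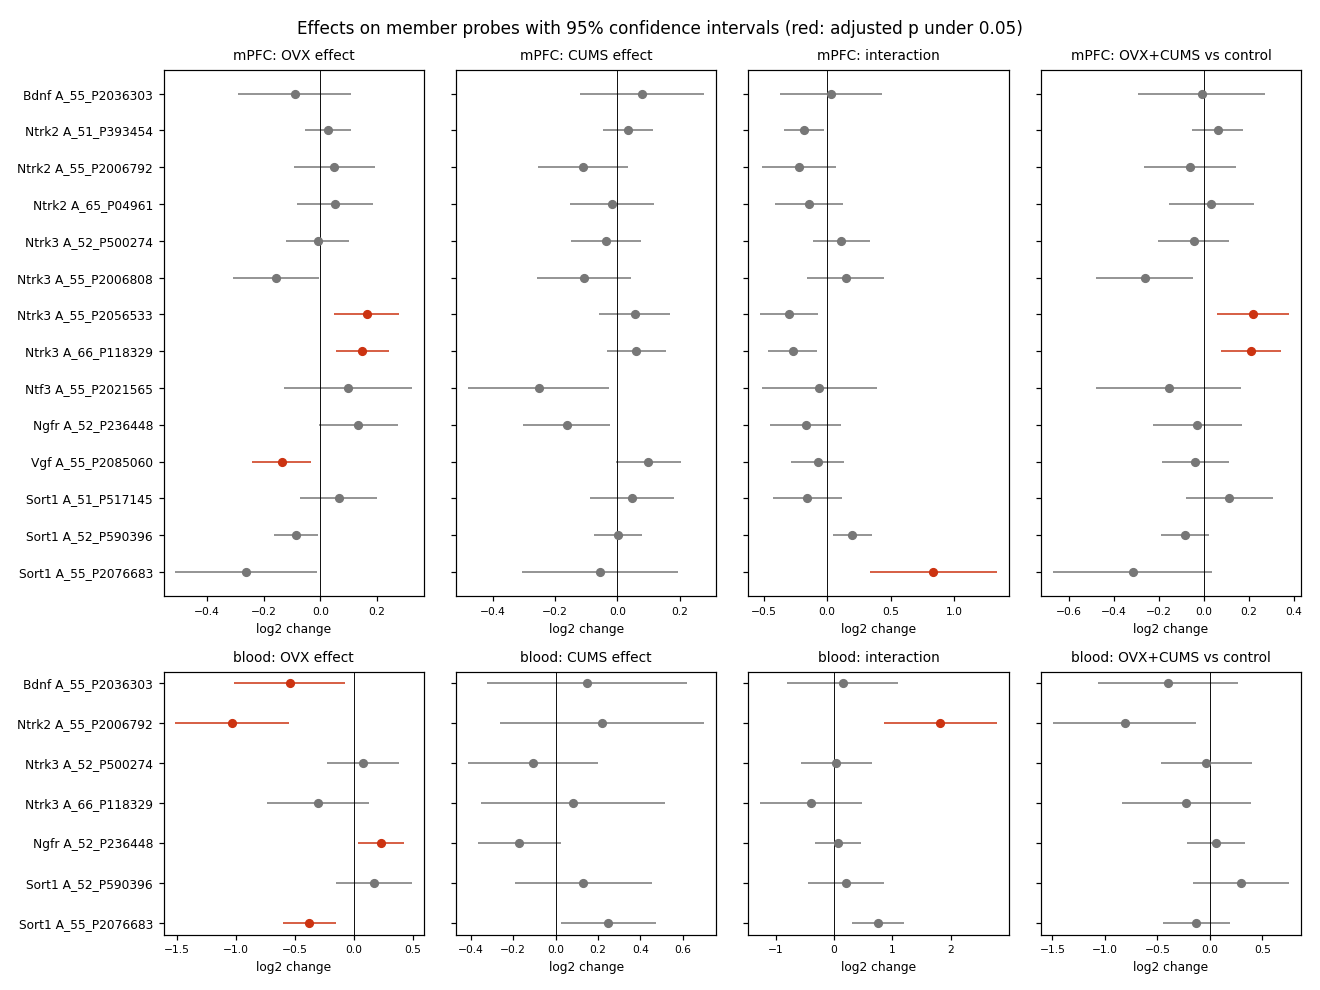
Log2 change of each member probe (points) with its 95% confidence interval (bars) for the OVX effect, the CUMS effect, their interaction and OVX+CUMS against control, in mPFC (14 probes) and blood (7 probes), from limma without slide as a term; panels have separate scales, and red marks an adjusted p under 0.05. In mPFC the called changes other than the Sort1 interaction of 0.83 lie between -0.14 and 0.22, and in blood they reach -1.03 and 1.82 for Ntrk2 A_55_P2006792.

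The likeness of other genes to Bdnf in mPFC was measured by the deviations from the group means over 24 arrays. The 5 named genes most like it were Gramd1c (r = 0.938), the cell-cycle inhibitor Cdkn1a (r = 0.890), the synaptic pentraxin Nptx2 (r = 0.838), the cAMP-responsive modulator Crem (r = 0.836) and the immediate-early gene Fosb (r = 0.819). Among the members, Vgf was closest to Bdnf, at r = 0.807. The Ntrk2 shared and truncated-form probes had r = 0.680, the pair of Ntrk3 truncated-form probes had r = 0.629, and the lowest value among member pairs was -0.602, between Ntrk2 A_65_P04961 and Sort1 A_55_P2076683. These correlations are descriptions over arrays that share library and slide.

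Other genes of the pathway were counted in mPFC, with the brightest detected probe standing for a gene. The counts stand beside shares over all mPFC probes of 19.1% higher and 11.7% lower for OVX and of 20.4% higher and 13% lower for OVX+CUMS against control, and with slide as a block none of these calls was kept. Of 10 genes of proneurotrophin processing, 4 rose and 1 fell for OVX: the convertases Pcsk2 and Pcsk7 rose by 0.19 and 0.16, and Furin, which cleaves precursors in the secretory pathway, fell by 0.23. In OVX+CUMS against control mice 3 of these 10 rose, Pcsk2 by 0.34, and 2 fell. The median change of this list for OVX was 0.08, where all probes had 0.04.

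Of 29 genes of Trk signalling, 9 rose and 3 fell for OVX, with a median of 0.08. The adaptor Gab1 rose by 0.25, the phosphoinositide 3-kinase subunit Pik3r1 rose by 0.24, and the adaptor Frs3 fell by 0.45. In OVX+CUMS against control mice 10 rose and 3 fell, with Pik3r1 at 0.44 and Frs3 at -0.84. Of 12 partners and effectors of p75, 3 rose and 2 fell for OVX. Lingo1, a co-receptor of p75 in the Nogo receptor complex, fell by 1.94 (SE 0.27, adjusted p = 4.85e-05) for OVX and by 2.75 in OVX+CUMS against control mice, and its ligand-binding partner Rtn4r fell by 0.19 for OVX. Of 16 genes of Bdnf transcription, 4 rose and 1 fell for OVX, with Usf1 at 0.23.

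Among 15 activity-induced genes in mPFC, 4 rose and 0 fell for CUMS, where 2.33% of all probes were called higher and 1.86% lower, with a list median of 0.33 where all probes had 0.01. Arc, an immediate-early gene of synapses, rose by 0.88 (SE 0.18, adjusted p = 0.0185), the nuclear receptor Nr4a1 by 0.51 and the phosphatase Dusp6 by 0.35. These calls were lost with slide as a block, as were those of all mPFC probes for CUMS. With OVX, 0 of the 15 were called. In OVX+CUMS against control mice 1 rose and 0 fell, beside 20.4% of all probes higher and 13% lower. The list median was 0.19 there, where all probes had 0.06. For CUMS, 3 of 29 Trk signalling genes rose and 1 fell, 1 of 10 processing genes rose and 1 fell, and 0 of 12 p75 genes and 0 of 16 Bdnf transcription genes were called by limma.

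In blood, 7 member probes were above background on all 24 arrays: Bdnf, the shared Ntrk2 probe, Ntrk3 A_52_P500274 and A_66_P118329, Ngfr, and Sort1 A_52_P590396 and A_55_P2076683. Averaged over stressed and unstressed mice, the shared Ntrk2 probe, Bdnf and Sort1 A_55_P2076683 were lower and Ngfr was higher after ovariectomy. The other 7 were above background on 0 of 24 blood arrays for Ntrk2 A_51_P393454 and A_65_P04961, Ntrk3 A_55_P2056533 and Ntf3, on 1 for Vgf, on 12 for Ntrk3 A_55_P2006808 and on 15 for Sort1 A_51_P517145. OVX called 4 of the 7 tested, 1 higher and 3 lower, against 55.1% of all probes, 27.4% higher and 27.7% lower. CUMS called 0 of 7, against 48.5% of all probes, 19.1% higher and 29.4% lower, with 1 unadjusted limma p under 0.05 (Sort1 A_55_P2076683) and 0 calls without moderation. The interaction called 1 of 7, a positive one, against 1.42%, of which 1.29% were positive and 0.13% negative. OVX+CUMS against control called 0 of 7, against 6.26%, 4.08% higher and 2.18% lower, with 1 unadjusted p under 0.05 (Ntrk2) and 0 calls without moderation.

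**Figure D4:**
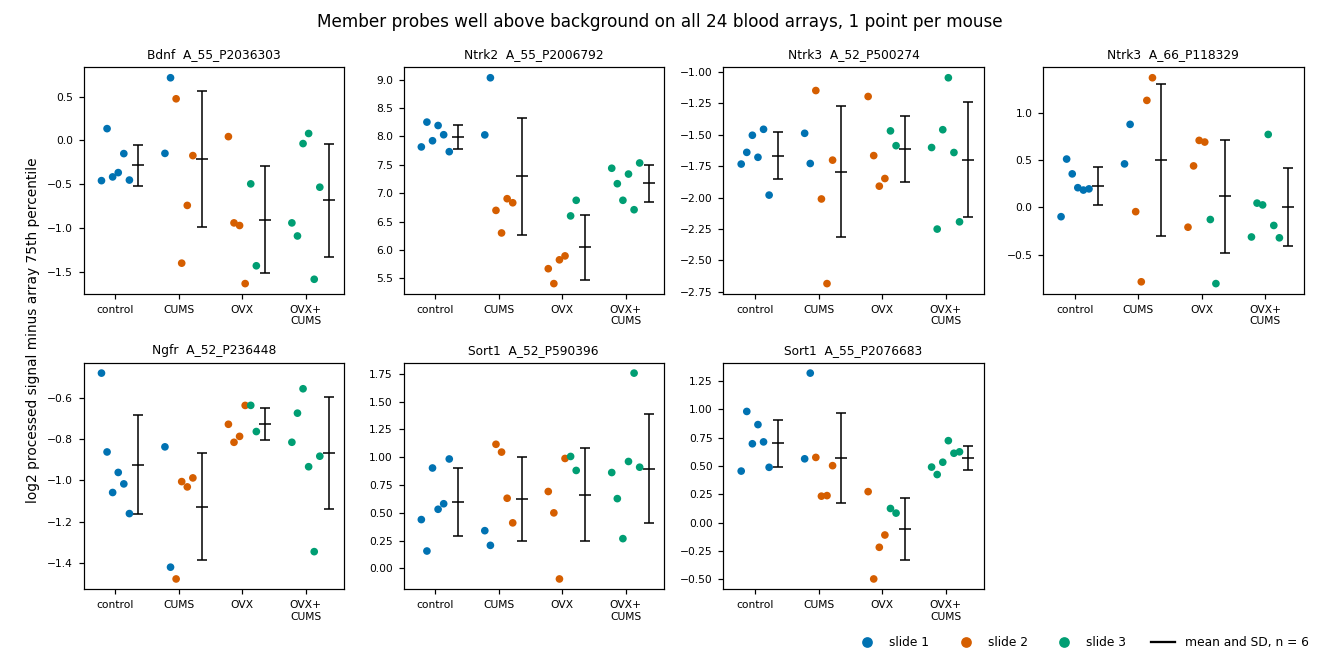
Level of the 7 member probes above background on all 24 blood arrays (log2, relative to the array's 75th percentile) in the 4 groups, 1 point per mouse coloured by slide, with the group mean and SD (n = 6); each panel has its own scale. Ntrk2 A_55_P2006792 is highest on slide 1, up to 9.03, and lowest in the OVX mice on slide 2, down to 5.41.

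The Ntrk2 probe for the membrane-spanning part gave the largest called changes among the 7 members tested in blood. It ranged from 7.73 to 8.25 in control mice with a median of 7.98, from 6.30 to 9.03 in CUMS mice with a median of 6.87, from 5.41 to 6.87 in OVX mice with a median of 5.86 and from 6.71 to 7.53 in OVX+CUMS mice with a median of 7.25. All OVX and OVX+CUMS mice lay below all control mice. Its OVX effect was -1.03 (SE 0.23, 0.489-fold, adjusted p = 0.00129 in limma), kept in all 24 fits that left out 1 array, and the interaction was 1.82 (SE 0.47, adjusted p = 0.0492), kept in 4 of 24, those without CUMS mouse 1 or 2 or OVX mouse 5 or 6. OVX+CUMS minus control was -0.81 (SE 0.33, limma adjusted p = 0.149, exact permutation p = 0.00216). Neither OVX nor OVX+CUMS mice shared a slide with control mice.

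Its values also moved with the slide. CUMS mice averaged 8.53 on slide 1 and 6.68 on slide 2, and OVX mice 5.70 on slide 2 and 6.74 on slide 3. Within slide 2, CUMS exceeded OVX by 0.98 (adjusted p = 0.00682 in limma), where 52.2% of all probes were called. With slide as a block, the OVX effect was -0.49 (adjusted p = 0.797), the interaction -0.10 with the sign turned, and the CUMS effect 0.49 (adjusted p = 0.0242). OVX+CUMS minus control was then -0.004. In that fit 49.7% of all blood probes were called for CUMS, and of the members this probe and Sort1 A_55_P2076683 (0.35, adjusted p = 0.0358).

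The raw intensity of this probe in blood was 6191 to 30136 units, whereas neither of the form-specific Ntrk2 probes rose above background on any of the same arrays, where their intensity was at most 7.95 units. Whether the shared probe read Ntrk2 RNA in blood was not tested. Likeness over 24 blood arrays was again measured by deviations from group means, in which differences between slides within a group remain. The named genes most like the shared probe, looked up after its values were seen, were Etv5 (r = 0.990), Nrtn (0.989), Gm1070 (0.987), Igf1 (0.987) and Gm6792 (0.987). The erythroid marker list, lower for OVX in 5 of 6 genes and higher for CUMS in 5 of 6, averaged 8.34 in control, 8.88 in CUMS, 7.90 in OVX and 8.27 in OVX+CUMS mice, with summed linear levels of 11008 to 18329, 13534 to 25839, 7666 to 11984 and 9732 to 13145. B cell markers were higher for OVX in 4 of 6 and lower for CUMS in 5 of 6, with means of 4.11, 3.77, 4.52 and 4.11. Beside these counts, 27.4% of all blood probes were called higher and 27.7% lower for OVX, and 19.1% higher and 29.4% lower for CUMS. The part of either cell type in the blood results was not tested.

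Bdnf in blood ranged from -0.46 to 0.14 in control mice with a median of -0.39, from -1.40 to 0.72 in CUMS mice with a median of -0.16, from -1.63 to 0.04 in OVX mice with a median of -0.96 and from -1.58 to 0.08 in OVX+CUMS mice with a median of -0.74. Its OVX effect was -0.55 (SE 0.23, 0.685-fold, adjusted p = 0.0463 in limma), but all groups overlapped. The raw intensity averaged 89.3 units in control, 79.5 in CUMS, 84.0 in OVX and 85.2 in OVX+CUMS mice, while the 75th percentile averaged 110, 86.3, 144 and 126. With the E1A shift, which moved the median OVX effect of all blood probes from 0.04 to 0.39 and the median CUMS effect from -0.03 to -0.33, 10568 probes were called higher and 1528 lower for OVX, against 5696 and 5751 with the 75th percentile. The OVX effect of Bdnf was then -0.20 and not called, and with slide as a block it was 0.01. The call was kept in 8 of 24 fits that left out 1 array, those without control mouse 1, CUMS mouse 4 or 5, OVX mouse 1 or 5 or OVX+CUMS mouse 3, 4 or 6. The platelet list averaged 5.70 in control, 6.01 in CUMS, 5.56 in OVX and 5.51 in OVX+CUMS mice. Of its genes, 2 of 7 were lower for OVX, near the 27.7% of all blood probes called lower. The part of platelets in the Bdnf values was not tested.

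Ngfr in blood ranged from -1.16 to -0.48 in control mice, from -1.48 to -0.84 in CUMS mice, from -0.81 to -0.63 in OVX mice and from -1.35 to -0.55 in OVX+CUMS mice, with medians of -0.99, -1.02, -0.74 and -0.85. All OVX mice lay above all CUMS mice. The OVX effect was 0.23 (SE 0.10, 1.17-fold, adjusted p = 0.0450 in limma), kept in 9 of 24 fits that left out 1 array, those without control mouse 1, CUMS mouse 1, 4, 5 or 6, OVX mouse 2 or 3 or OVX+CUMS mouse 4 or 5. Within slide 2, CUMS minus OVX, which differ in both surgery and stress, was -0.39 (adjusted p = 0.0435 in limma), where 52.2% of all probes were called. With slide as a block the OVX effect was 0.20 (limma adjusted p = 0.912).

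Sort1 A_55_P2076683 in blood ranged from 0.46 to 0.98 in control mice with a median of 0.70, from 0.23 to 1.32 in CUMS mice with a median of 0.53, from -0.50 to 0.27 in OVX mice with a median of -0.01 and from 0.42 to 0.72 in OVX+CUMS mice with a median of 0.57. OVX mice lay below all control and all OVX+CUMS mice. The OVX effect was -0.38 (SE 0.11, 0.768-fold, adjusted p = 0.00635 in limma), kept in all 24 fits that left out 1 array. It lay between the unstressed groups: means were 0.70 in control and -0.06 in OVX mice, but 0.57 in both CUMS and OVX+CUMS mice. The interaction was 0.75 (SE 0.22, adjusted p = 0.0695 in limma), and 0.22 and not called with slide as a block. With the E1A shift the OVX effect was -0.03 and with slide as a block -0.17, neither called. Within slide 2, CUMS exceeded OVX by 0.52 (adjusted p = 0.0320 in limma), where 52.2% of all probes were called. The remaining probes had OVX effects of 0.07 (95% interval -0.23 to 0.38) for Ntrk3 A_52_P500274, -0.31 (-0.74 to 0.13) for Ntrk3 A_66_P118329 and 0.17 (-0.16 to 0.49) for Sort1 A_52_P590396.

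Other genes of the pathway were counted in blood beside 27.4% of all probes higher and 27.7% lower for OVX, and 19.1% higher and 29.4% lower for CUMS, and with slide as a block none of the OVX calls was kept. For OVX, 7 of 21 Trk signalling genes tested rose and 3 fell, with Kidins220 at -0.56, Rps6ka2 at -0.52 and Akt1 at 0.44. For CUMS 0 rose and 9 fell, with Grb2 at -0.35, Frs2 at -0.35 and Shc1 at -0.34. Both effects come from the same 24 arrays. Ntf5, the other ligand of TrkB, fell by 0.49 for OVX and rose by 0.39 for CUMS. Of 13 Bdnf transcription genes, 3 rose and 3 fell for OVX, while 0 rose and 5 fell for CUMS. Of 6 activity-induced genes tested in blood, 3 rose and 1 fell for OVX and 0 rose and 1 fell for CUMS.

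Between the tissues of the same mice, most members were brighter in mPFC relative to the 75th percentile of the array. All 7 probes tested in both tissues differed, against 96.3% of the 17545 probes tested. Bdnf was higher in mPFC by 2.54 (SE 0.12, 5.80-fold), Ntrk3 A_52_P500274 by 4.29 (19.6-fold), Ntrk3 A_66_P118329 by 3.88 (14.7-fold) and Sort1 A_52_P590396 by 4.10 (17.1-fold), each in 24 of 24 mice. The shared Ntrk2 probe was 8.89-fold higher in blood, Ngfr 3.18-fold and Sort1 A_55_P2076683 3.89-fold, each in 24 of 24 mice. With the E1A shift, which takes the 75th percentile out of the scaling, Ngfr was 0.25 higher in mPFC, with the direction turned, and Sort1 A_55_P2076683 differed by -0.04 and was not called. The other 5 kept their direction and call.

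**Figure D5:**
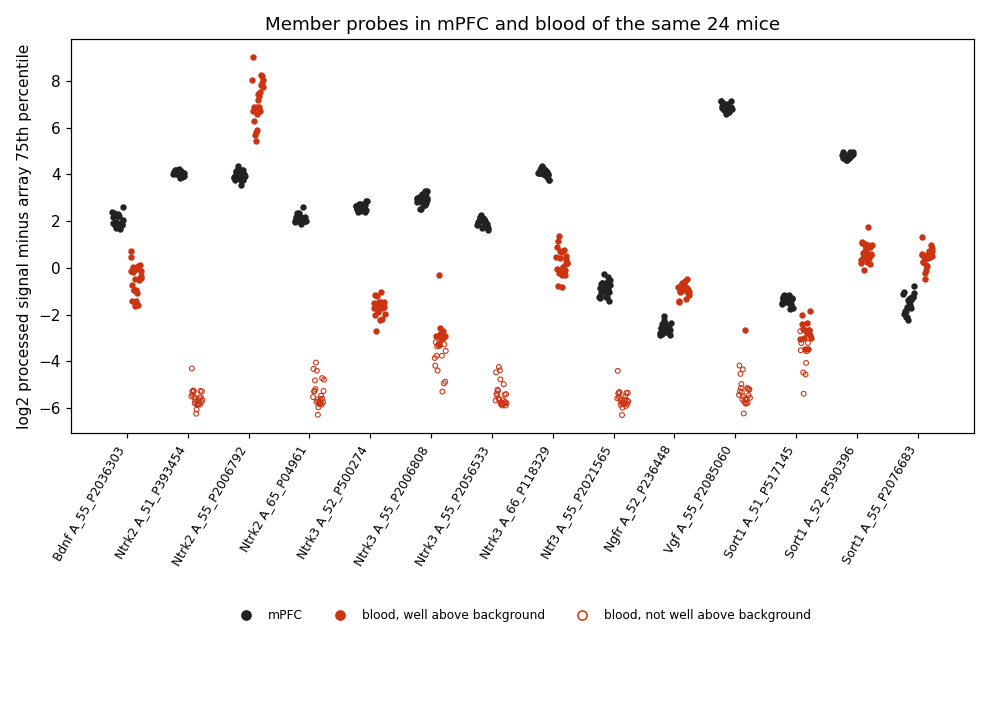
Level of each member probe (log2, relative to the array's 75th percentile) in mPFC (black) and blood (red) of the same 24 mice, 1 point per array; open points were not well above background. In mPFC every point is above background, while in blood 4 probes have only open points and Vgf has 1 filled point of 24.

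For probes not above background on every blood array only a bound can be given, the mean in mPFC against the mean of, per array, the higher of the blood value and the lowest signal among probes well above background. Vgf was at least 1510-fold higher in mPFC, the full-length Ntrk2 probe at least 221-fold, Ntrk3 A_55_P2006808 at least 62.4-fold, the truncated-form Ntrk2 probe at least 58-fold, Ntrk3 A_55_P2056533 at least 51.6-fold, Ntf3 at least 7.21-fold and Sort1 A_51_P517145 at least 3.21-fold. The Ntrk2 probes thus disagreed: the form-specific probes were higher in mPFC and the shared probe was higher in blood. The Sort1 probes disagreed likewise, with A_55_P2076683 higher in blood on this scale.

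Effects were also compared between the tissues on the difference mPFC minus blood of each mouse. The OVX effect on the shared Ntrk2 probe was 1.08 higher in mPFC than in blood (SE 0.25, adjusted p = 0.00219 in limma), where 37.2% of all probes differed. With slide as a block it was 0.62 and not called. The CUMS effect on Sort1 A_55_P2076683 in mPFC minus that in blood was -0.30 (SE 0.13, adjusted p = 0.0464), where 50.4% differed, and this call was kept in 9 of 24 fits without 1 mouse, those without control mouse 2 or 4, CUMS mouse 1 or 4, OVX mouse 1 or 4 or OVX+CUMS mouse 1, 2 or 3. No other OVX or CUMS effect and no interaction of the 7 probes differed. For the interaction 0 of all 17545 probes were called in limma, with 1876 at an unadjusted p under 0.05.

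Across the 24 mice, with the tissues matched by replicate number, the blood and mPFC values of the members were compared by their deviations from the group means. Of 7 probes tested, none passed. The largest, by deviation from group means alone, was Sort1 A_55_P2076683 with Pearson r = 0.424 (permutation p = 0.123) and Spearman rho = 0.266 (p = 0.271), with an adjusted permutation p of 0.812, and r = 0.532 without the 2 mice farthest from the median. By deviation from the mean of each group on each slide its sign turned, to r = -0.142 (permutation p = 0.594) and rho = -0.274 (permutation p = 0.218), and the largest was then Ntrk2 A_55_P2006792 with r = 0.331 (permutation p = 0.132). For Bdnf r was 0.05 (permutation p = 0.812) and rho 0.06 (permutation p = 0.795). Over the other 5 probes r lay between -0.22 and 0.08.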

How the data were processed

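RNA of mPFC and blood of 24 mice was measured on 48 arrays, and groups came from the sample labels. For each spot the authors deposited an intensity from which Feature Extraction (version 10.7.3.1, from the file headers) had removed background and spatial trends. The deposited log2 table holds the authors' values after a shift to the 75th percentile of each array, and was used as an alternative. Here, spots marked as outliers or uneven were left out (98 to 206 per array), replicate spots were averaged on the log2 scale, and the 75th percentile over non-control probes of an array was subtracted. A probe was tested in a tissue when it was positive, significant and well above background on all 24 arrays, with an intensity above 50 on at least 2. The number of arrays and the signal over background limit the precision: 31558 to 38070 probes were well above background in mPFC and 23606 to 34862 in blood.

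Effects were fitted on all probes in R 4.3.3 with limma 3.58.1 and the package data.table, version 1.17.8, and figures drawn in Python 3.11.15, as surgery, stress and their product, two-sided, with Benjamini-Hochberg adjustment at 0.05 over all probes of the tissue. Differences between tissues were fitted on the per-mouse differences, with tissues matched by group and replicate number. Single probes were compared by exact permutation, and correlations by 100000 permutations within groups. Mice of different groups are not paired by their numbers. On simulated data, 91% of probes changed by 0.5 log2 units were recovered for OVX in mPFC and 64.2% in blood, and 55.2% and 10.4% for the interaction. The simulated noise was independent between probes and held no slide effect, so these shares take no account of the slides. All member probes are named, and of each pathway list up to 3 called genes per effect with the largest change, together with the 5 genes most like Bdnf. The members and lists were chosen with earlier results of these data known. The alternatives were the 75th percentile over detected probes, quantile normalization, normexp with an offset of 50, the E1A spike-in shift, other detection filters, the authors' log2 values, no moderation, slide or replicate as a block, and leaving out each array. Leaving out 2 mice together and the alternatives for the Ntrk3 difference were chosen after seeing the data. The human samples of the study were not analysed here, and the results of some pathway genes are not reported here.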

Additional observations from a re-analysis of the deposited data

Results flagged for a closer look

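Of 84 groups of 6 mice tested for 1 value far from the others, 7 were flagged, where chance flags about 1 in 20. In mPFC, control mouse 5 stood apart for Bdnf at 2.61 (nearest mouse 2.03), for Vgf at 7.13 (nearest 6.87) and for Sort1 A_55_P2076683 at -0.78 (nearest -1.08). OVX mouse 5 stood apart for Ntrk3 A_55_P2056533 in mPFC at 1.71 (nearest 2.05), and OVX+CUMS mouse 6 for Ntrk2 A_65_P04961 in mPFC at 2.61 (nearest 2.15). In blood, CUMS mouse 2 stood apart for Sort1 A_55_P2076683 at 1.32 (nearest 0.58), and OVX+CUMS mouse 4 for Ntrk3 A_66_P118329 at 0.77 (nearest 0.05).

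Effects that differed between groups or tissues were flagged for the same 2 probes. The OVX effect on Ntrk2 A_55_P2006792 was 1.08 higher in mPFC than in blood, and the CUMS effect on Sort1 A_55_P2076683 differed between mPFC and blood by -0.30. The CUMS effect on Sort1 A_55_P2076683 in mPFC differed between ovariectomized and sham-operated mice by 0.83, and that on Ntrk2 A_55_P2006792 in blood by 1.82.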

How the results depend on the processing

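The number of member probes called in mPFC depended on several choices. For OVX (3 called) it was 1 without the detection filter, 0 with slide as a block and 1 without CUMS mouse 2 and OVX+CUMS mouse 5, and 2 to 3 when each array was left out. For CUMS (0 called) it was 3 with the E1A shift and 0 to 0 over the arrays left out. For the interaction (1 called) it was 0 with normexp, the 75th percentile over detected probes, the E1A shift, no detection filter, a looser detection filter, no moderation, slide as a block or replicate as a block, 2 without the 2 mice, and 0 to 3 over the arrays left out. For OVX+CUMS against control (2 called) it was 1 with normexp, 9 with the E1A shift, 1 without the filter, 0 with slide as a block and 1 without the 2 mice, and 1 to 3 over the arrays left out.

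In blood, OVX (4 called) gave 2 with normexp, 0 with slide as a block and 2 with the replicate block, and 2 to 5 over the arrays left out. CUMS (0 called) gave 1 with normexp, 1 with the E1A shift and 2 with slide as a block, and 0 to 1. The interaction (1 called) gave 2 with normexp and without the 2 mice, 0 with the 75th percentile over detected probes, the E1A shift, no filter, a looser detection filter, no moderation, slide as a block or the replicate block, and 0 to 2. OVX+CUMS against control (0 called) gave 0 to 1. Between tissues, 7 to 7 probes were called over the mice left out, and differences of effects (2 called) gave 1 with quantile normalization, 5 with the E1A shift, 1 without the replicate block, 1 with slide as a block and 1 to 3 over the mice left out.

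Directions turned in 6 cases. With the E1A shift these were OVX+CUMS against control for Ntrk3 A_55_P2056533 (-0.0408) and A_66_P118329 (-0.0510), and Ngfr mPFC minus blood (0.249). With slide as a block they were the Sort1 A_55_P2076683 interaction in mPFC (-0.126), the OVX effect on Bdnf in blood (0.00814) and the Ntrk2 A_55_P2006792 interaction in blood (-0.0999). The cause was not tested. Over the single member calls and the alternatives other than leaving out an array, 113 values kept the call, 56 kept only the direction and 6 turned.

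The same replicate numbers did not mark paired mice of different groups: correlations of their deviations ran from -0.230 to 0.391 in mPFC and from -0.508 to 0.488 in blood. Slide and group were largely confounded, and control and OVX+CUMS mice cannot be told apart from slides 1 and 3. In blood, 7 member probes had too little signal over background to be tested.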
